A study of Mus musculus with 4 samples.

Results

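Conventional type 2 dendritic cells (cDC2) were examined in kidneys of aged male C57BL/6 mice profiled by single-cell RNA sequencing. Cells were chosen by a gate on raw unique molecular identifier (UMI) counts. A member had at least 1 Ptprc, 1 Cd209a and 1 Flt3 or Zbtb46 UMI, at least 10 UMIs of the class II genes H2-Aa and H2-Ab1, at most 9 of C1qa, C1qb and C1qc, at most 2 of Mki67 and Top2a, at most 1 of Xcr1 and Clec9a and of Ccr7, and no Cd3d, Cd3e, Cd3g or Cd79a UMI. The gate held 421 of the 50605 barcodes kept by the quality filter.

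The animals were 19 months old and had received BPTES, a small-molecule inhibitor of glutaminase, or the vehicle DMSO for 1 month. Each group had 2 libraries, and every library mixed 20000 CD45-negative with 9000 CD45-positive sorted cells from liberase-digested kidney. Whether the libraries of a group came from separate animals is not stated in the labels, so p-values measure only the spread between these libraries. The comparison addressed how glutaminase inhibition alters the cells of the aged kidney.

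cDC2 are antigen-presenting leukocytes that arise from bone marrow precursors under FLT3 ligand. They take up antigen in tissues, load it on MHC class II and prime CD4 T cells, for which they also release chemokines that attract T cells. In the kidney they share the interstitium with C1q-expressing macrophages, type 1 dendritic cells (cDC1, which cross-present antigen to CD8 T cells) and mature CCR7-positive dendritic cells on their way to the lymph node.

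The BPTES libraries held 81 and 71 members and the DMSO libraries 181 and 88, with 2466660, 2184228, 5897450 and 2984765 UMIs in all. Members of the BPTES libraries had medians of 28563 and 29127 UMIs, and those of the DMSO libraries 31200 and 32614, so depth per cell was lower in both BPTES libraries. The median share of mitochondrial UMIs was highest in BPTES library 1 (1.503%) and lowest in DMSO library 2 (1.29%). No member barcode was shared between libraries, although any pair of libraries shared 90 to 114 barcodes. Genes of the gate describe how members were picked. Members had a median of 15 and 20 Cd209a UMIs in the BPTES libraries and of 21 and 34.5 in the DMSO libraries, and median H2-Aa plus H2-Ab1 was 642, 627, 777 and 794. At the edge of the gate, 16 members had exactly 1 Cd209a UMI, and 184 barcodes met every condition but had no Cd209a UMI. A further 53 members had 1 Xcr1 or Clec9a UMI, and 27 barcodes just outside had 2. Members with 1 Ccr7 UMI numbered 0 and 3 under BPTES and 12 and 1 under DMSO, and no gate without them was run.

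Markers that the gate did not use were checked in every library. With cells thinned to 10000 UMIs, Sirpa, the signal-regulatory receptor that separates cDC2 from cDC1, was detected in 87.1% to 94.8% of members by library, against 2.65% to 7.53% of gated T cells, which served as background. Without thinning the member shares were 97.8% to 100%. Thinned cDC1 had Sirpa in 31.3% to 40.5% of cells and thinned C1q macrophages in 92.5% to 96.8%, so its share in members was above that in cDC1 and close to that in macrophages. Itgam, which encodes CD11b, was found in 80.5% to 88.2% of thinned members and in 2.08% to 3.50% of T cells, with 13.04% to 20.9% of cDC1 and 57.2% to 85.5% of C1q macrophages. Clec10a, a galactose-binding lectin, was found in 69.3% to 81.2% of members, in at most 0.530% of T cells, in 22.4% to 29.8% of cDC1 and in 9.09% to 23.1% of C1q macrophages. Irf4, the factor cDC2 development depends on, was found in 36.4% to 47.2% of members and in 13.2% to 24.2% of T cells. Csf1r, a receptor of macrophages and monocytes, was found in 44.2% to 54.1% of members, compared with 98.9% to 100% of gated C1q macrophages. Esam, which marks a lymphoid-tissue subset, was found in 0% to 5.19% of members.

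cDC2 made up 1.48% (95% exact Clopper-Pearson interval 1.17 to 1.83) and 1.41% (1.10 to 1.77) of Ptprc-positive barcodes under BPTES. Under DMSO they made up 3.11% (2.68 to 3.59) and 1.69% (1.36 to 2.08). The group means were 1.44% ± 0.0497 and 2.40% ± 1.01 (SD, n = 2), a difference of -0.960 percentage points. Both BPTES libraries lay below both DMSO libraries, but only DMSO library 1 stood apart by its interval. The exact two-sided permutation test over libraries gave p = 0.333, the smallest value this design allows. Without DMSO library 1 the difference shrank to -0.249 percentage points, and with Sirpa in place of Cd209a the groups overlapped (exact permutation p = 0.667). The intervals cover counting error only.

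Shares of the other gated myeloid populations were measured in the same way. cDC1 made up 1.48% and 1.48% under BPTES against 1.55% and 1.40% under DMSO, with means 0.00582 percentage points apart. The cDC1 gate set no limit on plasmacytoid dendritic cell markers, whose summed level there was above that in cDC2 in every library. The part of plasmacytoid cells in its share was not tested. Mature dendritic cells made up 0.401% and 0.178% under BPTES against 0.808% and 0.768% under DMSO. C1q macrophages made up 5.37% and 5.60% against 7.67% and 8.54%. Groups did not overlap for mature dendritic cells and macrophages, each with an exact permutation p of 0.333. Differences in share between populations were not tested against each other.

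**Figure D1:**
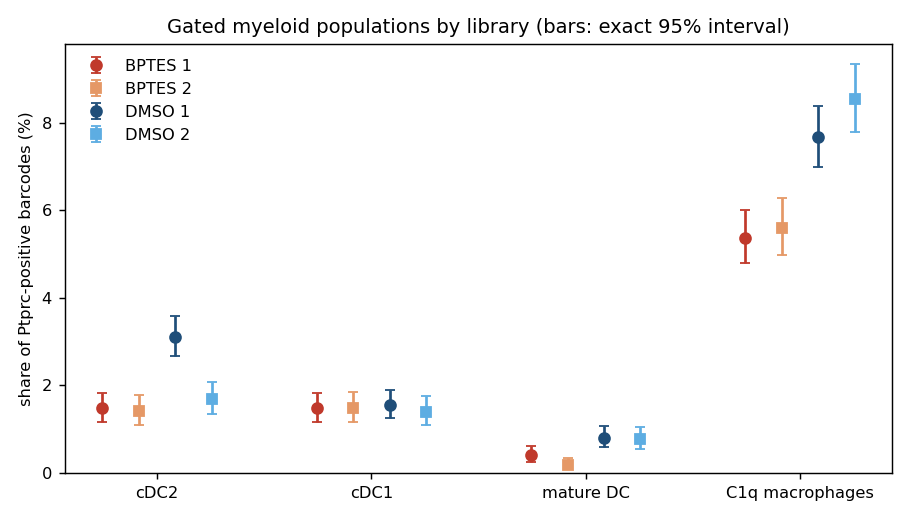
Share of Ptprc-positive barcodes (y axis, percent) in each gated population (x axis), with 1 point per library and exact 95% binomial intervals. The cDC2 share of DMSO library 1 (3.11%) lies above the other 3 libraries (1.41% to 1.69%), while the 4 cDC1 shares lie together.

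Gene expression was compared on UMI counts summed over the members of each library, and UMI totals of a gene below count members only. Of 10362 genes tested, 183 (1.77%) passed an adjusted p of 0.05 in edgeR's quasi-likelihood test with Benjamini-Hochberg adjustment, 109 (1.05%) higher and 74 (0.714%) lower under BPTES. Before adjustment, 1491 of the 10362 genes had a p under 0.05 in that test, the background for the list counts below. Among the 4694 genes with a mean log2 CPM of 5 or more, 90 (1.92%) passed. Among genes at that level, those that fell included genes for the chemokine CCL22, guanine deaminase, lipoprotein lipase and the lectin MGL2. The higher genes included the glucocorticoid-induced Tsc22d3, the prostaglandin-degrading enzyme Hpgd and the receptor Gpr141, beside transcripts of endothelium, tubule and plasma cells. Log2 fold changes are BPTES over DMSO, and the median log2 fold change over all genes was 0.00336. CPM is the usual library-scaled count, computed on the cDC2 sum after TMM scaling. Levels summed over a marker list carry no TMM scaling.

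A few members also carried transcripts of other cells, unevenly between the groups. At least 5 UMIs of the endothelial genes Cdh5, Emcn and Plvap occurred in 5 and 2 BPTES members and 0 and 0 DMSO members. Those BPTES cells held 91.0% and 92.4% of the endothelial UMIs among the members of their libraries. At least 20 UMIs of the proximal tubule genes Slc34a1, Lrp2, Miox and Slc5a2 were found in 3 and 5 members under BPTES and in 7 and 8 under DMSO. Without these 30 cells, 74 of 9646 genes (0.767%) passed, 31 (0.321%) higher and 43 (0.446%) lower. Of these, 62 were among the 183, 26 of them higher and 36 lower. Another 59 of the 183 could not be tested without these 30 cells, among them the lower genes Slc7a13 (log2 fold change -2.99) and Eci3 (-3.86). The calls below are therefore also given without those cells where that changes them, a choice made after the data were seen.

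The calls also depended on Cd209a as a gate gene. When Sirpa replaced it, which took in 120, 98, 226 and 111 cells, edgeR's quasi-likelihood test made 0 calls over 11514 genes, and 826 of them had an unadjusted p below 0.05. Of the 109 higher genes 90 kept their sign under that gate, and of the 74 lower genes 73 did. Nearly all members had a Sirpa UMI and so are also in that gate, which makes the kept signs no independent test. Leaving out 1 library gave 238 genes without BPTES library 1, 509 without BPTES library 2, 272 without DMSO library 1 and 99 without DMSO library 2.

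**Figure D2:**
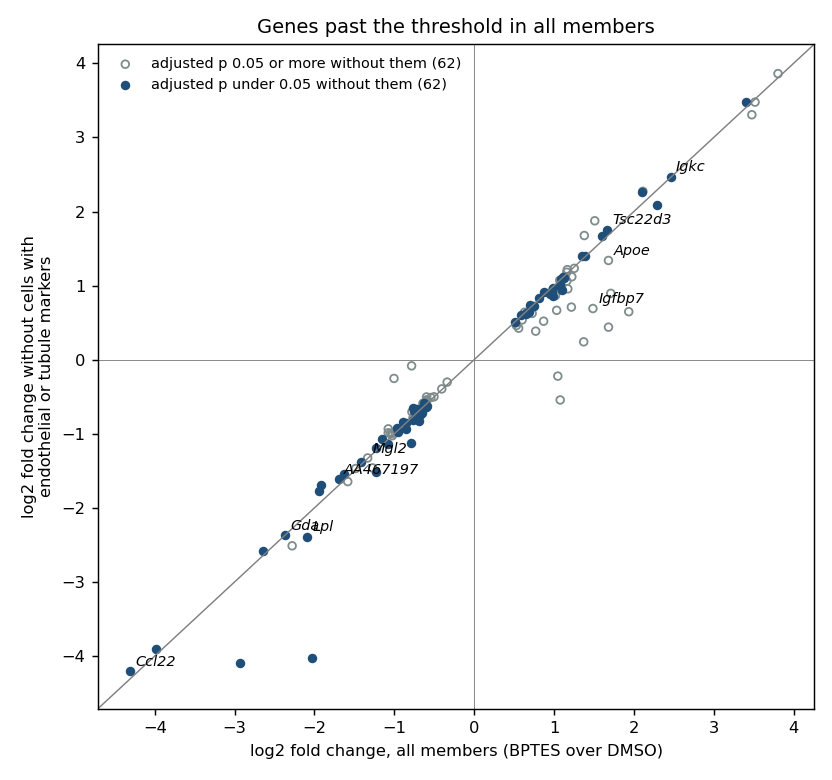
Log2 fold change (BPTES over DMSO) in all members (x axis) against the value without the 30 members with endothelial or tubule counts (y axis), for the 124 of 183 genes that could be tested both ways. Filled points (62) passed without those cells and open points (62) did not, and the genes far below the diagonal on the right, such as Igfbp7, are higher genes whose difference shrank.

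Ccl22 encodes a chemokine of dendritic cells that attracts CCR4-positive regulatory and T helper cells. Its level was 3.16 and 2.75 CPM in the BPTES libraries and 72.7 and 45.1 CPM in the DMSO libraries. The DMSO libraries were far above both BPTES libraries, with group means of 2.96 ± 0.290 and 58.9 ± 19.5 CPM (SD, n = 2), 19.9-fold lower under BPTES. The log2 fold change was -4.31 (SE 0.349, adjusted p = 0.000875, edgeR), and -4.20 (adjusted p = 0.000281) without the endothelial and tubule cells. Few cells carried the transcript, and whether they were the members with 1 Ccr7 UMI was not tested. Ccl22 UMIs were found in 4 of 81 and 3 of 71 BPTES members and in 21 of 181 and 12 of 88 DMSO members. A single DMSO member held 95 of the 422 Ccl22 UMIs among the members of its library. Among gated T cells, 0 of 826, 0 of 944, 3 of 858 and 1 of 777 had a Ccl22 UMI.

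Ccl17, a nearby gene on chromosome 8 that encodes the other ligand of CCR4, had the next most negative estimate among the listed genes but did not pass. Its level was 19.8 and 39.9 CPM under BPTES and 330.3 and 582 CPM under DMSO. The groups did not overlap, as for 47.3% of all genes tested, and the log2 fold change was -3.95 (SE 0.562, adjusted p = 0.149, edgeR). In DMSO library 2 a single member held 620 of the 1680 Ccl17 UMIs, and in DMSO library 1 a single member held 462 of 1918. At similar estimates Ccl17 passed with DESeq2 (adjusted p = 1.73e-07) and with the replicate block (1.27e-11, edgeR), a fit that leaves little to estimate its spread from. Its log2 fold change was -3.50 without BPTES library 1, -4.52 without BPTES library 2, -4.31 without DMSO library 1 and -3.48 without DMSO library 2.

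The stretches of 250 bases before the starts of both chemokine genes are shown because these nearby genes encode both CCR4 ligands and lay lower under BPTES in the estimates. They come from RefSeq (GRCm38.p6, plus strand). Capitals mark a match to the STAT-type motif, TTC and GAA separated by 4 bases of any kind, searched on both strands.
Ccl22, chr8:94745434-94745683: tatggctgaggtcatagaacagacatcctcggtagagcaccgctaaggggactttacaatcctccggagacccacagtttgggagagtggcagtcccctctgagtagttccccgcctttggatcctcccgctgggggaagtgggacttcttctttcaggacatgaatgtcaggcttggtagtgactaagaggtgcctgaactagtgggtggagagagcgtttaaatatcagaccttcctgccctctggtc
Ccl17, chr8:94810203-94810452: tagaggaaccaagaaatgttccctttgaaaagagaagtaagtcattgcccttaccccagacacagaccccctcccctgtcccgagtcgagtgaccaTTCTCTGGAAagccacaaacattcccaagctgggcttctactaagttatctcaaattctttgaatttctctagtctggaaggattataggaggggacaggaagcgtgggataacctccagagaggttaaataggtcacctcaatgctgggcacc
Of the 12 named lower genes, 9 had a promoter in this table, and 0 of the 9 held the STAT-type motif or the NF-kB consensus in that window. Over all 27025 genes with a promoter, 6.76% held the STAT-type motif and 4.46% the NF-kB consensus. A match is a description of letters, not of binding.

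Of 8 tested cDC2 markers outside the gate, Mgl2 and Itgax fell and 0 rose, 7 estimates were negative and the median was -0.319. Of 23 tested surface and cytokine receptor genes, 3 fell and 0 rose, with a median log2 fold change of -0.206. Before adjustment 3 of the 8 markers and 9 of the 23 receptor genes had a p under 0.05 (edgeR). Mgl2, the lectin CD301b of type 2 dendritic cells, was at 451 and 419.7 CPM under BPTES and at 920.3 and 1279 CPM under DMSO. The BPTES libraries were close to each other and below both DMSO libraries (log2 fold change -1.33, SE 0.161, adjusted p = 0.0129, edgeR). At similar estimates its adjusted p was 0.0820 without the endothelial and tubule cells and 0.0715 without the cells of highest doublet (Scrublet) score. Without BPTES library 1 or 2 the estimate was -1.39 and -1.29, and the call was lost. Clec4n, which encodes the fungal receptor dectin-2, had a log2 fold change of -1.27 (adjusted p = 0.0162), and Itgax, which encodes CD11c, one of -0.70 (adjusted p = 0.0237). Without the endothelial and tubule cells Itgax kept its call (adjusted p = 0.0317) and Clec4n did not (log2 fold change -1.46, adjusted p = 0.103), and Itgax lost it without DMSO library 1 (0.0597). Clec10a, the close relative of Mgl2, did not pass (379.9 and 383 against 428 and 575 CPM, adjusted p = 0.238, edgeR).

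Itgae, the integrin CD103 that is abundant on cDC1, was low in cDC2 at 5.14 and 2.29 CPM under BPTES and 19.98 and 28.4 CPM under DMSO. It fell by 2.64 on the log2 scale (SE 0.377, adjusted p = 0.00665, edgeR), and by 2.59 (adjusted p = 0.0138) without the endothelial and tubule cells. It was the only 1 of 6 tested cDC1 markers to pass.

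The genes of antigen presentation and T cell costimulation that passed were lower under BPTES. Of 10 tested MHC class II genes, 9 estimates were negative, with a median log2 fold change of -0.207. Before adjustment 4 of the 10 had a p under 0.05 (edgeR), against 1491 of the 10362 genes tested. After adjustment 1 of the 10 fell, where 0.714% of all genes tested were called lower. That gene was H2-DMb2, a subunit of the peptide-loading chaperone H2-M, at 307 and 304 CPM under BPTES and 467 and 577 CPM under DMSO (log2 fold change -0.77, SE 0.122, adjusted p = 0.0107, edgeR). Its adjusted p was 0.0866 without DMSO library 2. H2-Eb1, a class II beta chain, was at 9350 and 9122 CPM against 10765 and 11644 CPM (adjusted p = 0.0977), and Cd74, the invariant chain, did not pass either (adjusted p = 0.225). Of 13 tested class I genes 0 passed, with 2 at an unadjusted p under 0.05.

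Of 22 tested costimulation and maturation genes, Ccl22 and Cd86 fell and 0 rose, with a median of -0.255. Before adjustment 11 of the 22 had a p under 0.05 (edgeR). Cd86, the ligand of CD28 and CTLA4, was at 421 and 394 CPM under BPTES and 674 and 564 CPM under DMSO (log2 fold change -0.60, SE 0.114, adjusted p = 0.0276, edgeR). It kept its call without the endothelial and tubule cells (adjusted p = 0.0180) and lost it without DMSO library 1 (0.136). Cd80 (adjusted p = 0.266), Cd40 (0.484) and Cd274, which encodes PD-L1 (0.420), did not pass.

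Among 21 tested chemokine and cytokine genes, a list that did not hold Ccl22, 1 fell, with a median of -0.220. Before adjustment 9 of the 21 had a p under 0.05 (edgeR). Ccl4, an inflammatory chemokine, was at 358 and 377 CPM under BPTES and 689 and 635 CPM under DMSO. Both BPTES libraries were below both DMSO libraries by a similar margin (log2 fold change -0.85, SE 0.103, adjusted p = 0.00274, edgeR). The call held without the endothelial and tubule cells (adjusted p = 0.00202) and without any 1 library. Il1b, which encodes an inflammatory cytokine, was at 2002 and 2029 CPM against 2460 and 2207 CPM and did not pass (adjusted p = 0.295). In the list of alternative activation genes, 2 of 14 fell, Ccl22 and Mgl2.

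Regulators of cDC2 identity did not pass. Of 15 tested transcription factors 0 passed, with a median of -0.132. An unadjusted p under 0.05 was found for 3 of them, against 1491 of the 10362 genes tested. Irf4 was at 92.5 and 52.3 CPM under BPTES and 113 and 90.8 CPM under DMSO, where the groups overlapped. Pattern recognition genes (0 of 21, with 2 at an unadjusted p under 0.05), NF-kB subunits and feedback genes (0 of 15, 3) and interferon response genes (0 of 24, 3) gave no call in edgeR, with medians of 0.0823, -0.138 and 0.316.

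Immediate early and dissociation genes, which tissue digestion can induce, included 1 higher and 3 lower of 25, with a median of 0.0918. Klf2, a quiescence and trafficking factor, rose from 109 and 109.5 CPM under DMSO to 203 and 227 CPM under BPTES (log2 fold change 0.97, SE 0.117, adjusted p = 0.00268, edgeR). Ier3 (-0.85, adjusted p = 0.0272), Egr2 (-1.03, 0.0364) and Fosl2 (-0.60, 0.0368) were lower. The list did not move one way as a whole. Nr4a3, which responds to activating signals, was at 162 and 101 CPM against 244 and 262 CPM without passing (adjusted p = 0.125), and it did pass with DESeq2 (adjusted p = 0.00164), with the replicate block (0.0494), without a count filter (2.62e-11) and without either BPTES library.

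Tsc22d3 encodes GILZ, a leucine zipper protein induced by glucocorticoids. Its level was 169 and 183 CPM under BPTES and 47.2 and 65.8 CPM under DMSO. Both BPTES libraries were above both DMSO libraries, 3.16-fold in the means of 176 ± 9.72 and 56.5 ± 13.2 CPM (SD, n = 2). The log2 fold change was 1.66 (SE 0.162, adjusted p = 0.00112, edgeR) and 1.75 (adjusted p = 0.000375) without the endothelial and tubule cells. The gene was also at higher levels under BPTES in gated T cells (151 and 187 against 101 and 135 CPM, without TMM scaling) and in C1q macrophages (131 and 148 against 58.0 and 97.6 CPM).

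Hpgd, which inactivates prostaglandins, was at 226 and 230.2 CPM under BPTES and 100.4 and 109 CPM under DMSO (log2 fold change 1.13, SE 0.115, adjusted p = 0.00106, edgeR). Gpr141, an orphan G protein-coupled receptor, was at 184 and 189 CPM against 88.9 and 82.8 CPM (1.12, SE 0.117, adjusted p = 0.00112). Naa16, a subunit of an N-terminal acetyltransferase, was at 51.4 and 57.3 CPM against 25.1 and 25.99 CPM (1.09, SE 0.167, adjusted p = 0.00875). For all 3 genes the libraries of a group lay close together, and the call held without the endothelial and tubule cells.

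Gda, guanine deaminase of purine breakdown, was at 62.1 and 57.8 CPM under BPTES and 248 and 377 CPM under DMSO (log2 fold change -2.37, SE 0.228, adjusted p = 0.00801, edgeR). It lost its call without BPTES library 1 (-2.42, adjusted p = 0.269) or library 2 (-2.33, 0.229), and with the Sirpa gate its log2 fold change was -0.67 (0.789). Lpl, lipoprotein lipase, was at 15.8 and 11.9 CPM against 64.6 and 54.4 CPM (-2.10, SE 0.205, adjusted p = 0.000875). With the Sirpa gate Lpl was at -0.64 (adjusted p = 0.686, edgeR), and with equal cell numbers at -1.48 (0.0534). Single DMSO members held 203 and 102 Lpl UMIs, of 375 and 157 among the members of their libraries. AA467197, which encodes a small mitochondrial protein, was at 49.0 and 55.0 CPM against 159 and 178 CPM (-1.69, SE 0.136, adjusted p = 0.000193).

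The anti-apoptotic BCL2A1 paralogs Bcl2a1a (-1.64, adjusted p = 0.00549, edgeR) and Bcl2a1b (-1.22, adjusted p = 0.0189) were lower. A further paralog outside the named genes, Bcl2a1d, fell less (-0.70, adjusted p = 0.0191). These near-identical copies can share reads, so the division between them is uncertain. Slc14a1, a urea transporter (-1.16, adjusted p = 0.0143), the alpha-actinin gene Actn1 (-1.08, 0.0282) and Nav2, a neuron navigator gene (-1.07, 0.00638), completed the named lower genes with Egr2. Actn1 (log2 fold change -0.99, adjusted p = 0.0529) and Egr2 (-0.999, 0.0564) missed the threshold without the endothelial and tubule cells, at similar estimates. Slc14a1, Bcl2a1b, Actn1 and Egr2 lost their calls without DMSO library 2. Of the 23 named genes, 8 kept their call under every alternative except the Sirpa gate: Ccl22, AA467197, Bcl2a1a, Nav2, Naa16, Gpr141, Hpgd and Tsc22d3. The Sirpa gate holds nearly all members, so its estimates are not independent. Under it the log2 fold changes of these 8 genes were -4.08, -1.72, -1.46, -1.07, 1.10, 1.24, 1.25 and 1.59 in that order.

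**Figure D3:**
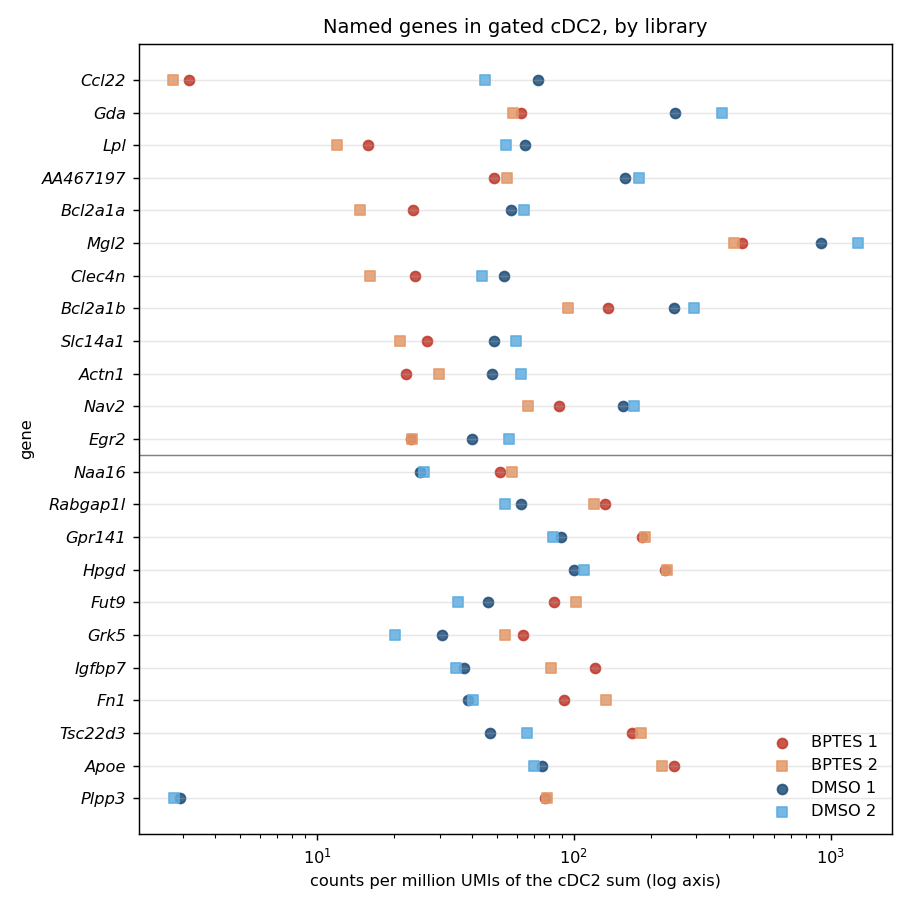
Level of each named gene (y axis) in the cDC2 sum of each library (CPM, x axis, log scale), with 1 point per library. Above the line are the 12 genes lower under BPTES and below it 11 higher ones, and in each row the BPTES pair and the DMSO pair do not overlap, which the rule for naming required.

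Several other named higher genes are known from other cell types. Plpp3, a lipid phosphatase of endothelium, was at 77.5 and 78.9 CPM under BPTES against 2.93 and 2.77 CPM under DMSO (log2 fold change 4.75, SE 0.215, adjusted p = 2.56e-06, edgeR). In each BPTES library 1 member held 94 of 196 and 170 of 172 of its UMIs, and the gene fell below the count filter without the endothelial and tubule cells. The endothelial markers Emcn, Plvap and Cdh5 were higher, 3 of 4 tested. Without those cells 1 of the 4, Pecam1, could be tested, and it did not pass (log2 fold change 0.10). In all members their summed level with Pecam1 was 111 and 92.5 CPM under BPTES and 38.7 and 25.8 CPM under DMSO. Of 5 proximal tubule markers, Slc5a2 (1.68) and Slc34a1 (0.77) rose, and 0 passed without those cells. Emcn, Plvap, Cdh5, Slc5a2 and Slc34a1 were among the genes that defined the removed cells, so their losses follow in part from the removal. The proximal tubule list summed to 563 and 519.6 CPM against 692 and 1303 CPM, so its summed level was lower under BPTES.

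Apoe, the lipid carrier that C1q macrophages express most, was at 246 and 221 CPM in cDC2 under BPTES and 75.3 and 69.7 CPM under DMSO (log2 fold change 1.68, SE 0.122, adjusted p = 0.00012, edgeR). Apoe UMIs were found in 43.2% and 33.8% of BPTES members and in 51.4% and 68.2% of DMSO members, the opposite order to the level. Single BPTES members held 96 of 622 and 110 of 481 UMIs, and single DMSO members 69 of 437 and 84 of 201. Apoe lost its call when the gate allowed at most 3 UMIs of C1qa, C1qb and C1qc. Without the endothelial and tubule cells its log2 fold change was 1.34 (adjusted p = 0.244). Igfbp7 (1.49), Fn1 (1.51), Fut9 (1.16) and Grk5 (1.17) also lost their calls without those cells. There Igfbp7 was at 0.69, whereas Fn1 was at 1.88, Fut9 at 1.06 and Grk5 at 0.96. Single BPTES members held 178 of 212 and 148 of 223 Fut9 UMIs, and with equal cell numbers Fut9 was at 0.65 (adjusted p = 0.4003, edgeR). With the Sirpa gate Apoe was at 0.91, Fn1 at 2.15, Plpp3 at 0.60 and Igfbp7 at -1.23. Rabgap1l (1.11, adjusted p = 0.00305) lost its call when members with Siglech or Ly6c2 counts were also left out.

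Plasma cell markers were higher under BPTES. Of 5 plasma cell genes, 4 rose: Igkc, Jchain, Mzb1 and Igha. Without the endothelial and tubule cells Igkc and Jchain kept their calls, Igha had an adjusted p of 0.0501 and Mzb1 was not tested. Igkc, the kappa light chain constant gene, was at 201 and 280.2 CPM in cDC2 under BPTES and 43.6 and 43.7 CPM under DMSO (log2 fold change 2.46, adjusted p = 0.000193, edgeR). Its level was likewise higher under BPTES in gated T cells (368 and 478 against 97.2 and 98.7 CPM) and proximal tubule cells (254 and 498 against 61.1 and 59.2 CPM), both without TMM scaling. The 5 plasmacytoid dendritic cell markers were not called (median 1.64, 1 at an unadjusted p under 0.05) but summed to 407 and 530 CPM under BPTES and 272 and 141 CPM under DMSO. Monocyte markers (0 of 5 called, 0 at an unadjusted p under 0.05) summed to 511 and 609 against 396 and 167 CPM. Members with at least 5 Siglech UMIs numbered 4 and 4 against 3 and 0, and with at least 5 Ly6c2 UMIs 6 and 10 against 13 and 3. Without these and the endothelial and tubule cells 47 genes passed, 16 higher and 31 lower, 38 of them among the 183. The part of these lists in the calls was not tested.

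Metabolic genes near the drug target did not pass. Of 16 tested glutamine and glutamate genes 0 passed, with 5 at an unadjusted p under 0.05 and a median of -0.0421. Glul, glutamine synthetase, was at 61.3 and 66.0 CPM under BPTES against 39.6 and 57.2 CPM under DMSO (adjusted p = 0.344, edgeR). Of 13 amino acid stress genes, Nupr1 rose (1.02, adjusted p = 0.0463) and Sesn2 fell (-1.08, adjusted p = 0.0344), and neither passed without the endothelial and tubule cells (log2 fold changes 0.87 and -0.93), nor without DMSO library 2 (adjusted p = 0.239 and 0.179). In the cholesterol and lipid list Apoe rose and Lpl fell, of 20 tested. Of 12 senescence and cell cycle arrest genes, Cdkn1a fell by 0.60 on the log2 scale (adjusted p = 0.0388) and missed the threshold at similar estimates without those cells (-0.50, adjusted p = 0.1497), without BPTES library 1 (-0.53, 0.0763) and without DMSO library 2 (-0.48, 0.296).

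The 13 respiratory chain genes of the mitochondrial genome had a median of 0.265, with 11 at an unadjusted p under 0.05 and 0 called by edgeR. Without the endothelial and tubule cells that median was -0.0761.

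**Figure D4:**
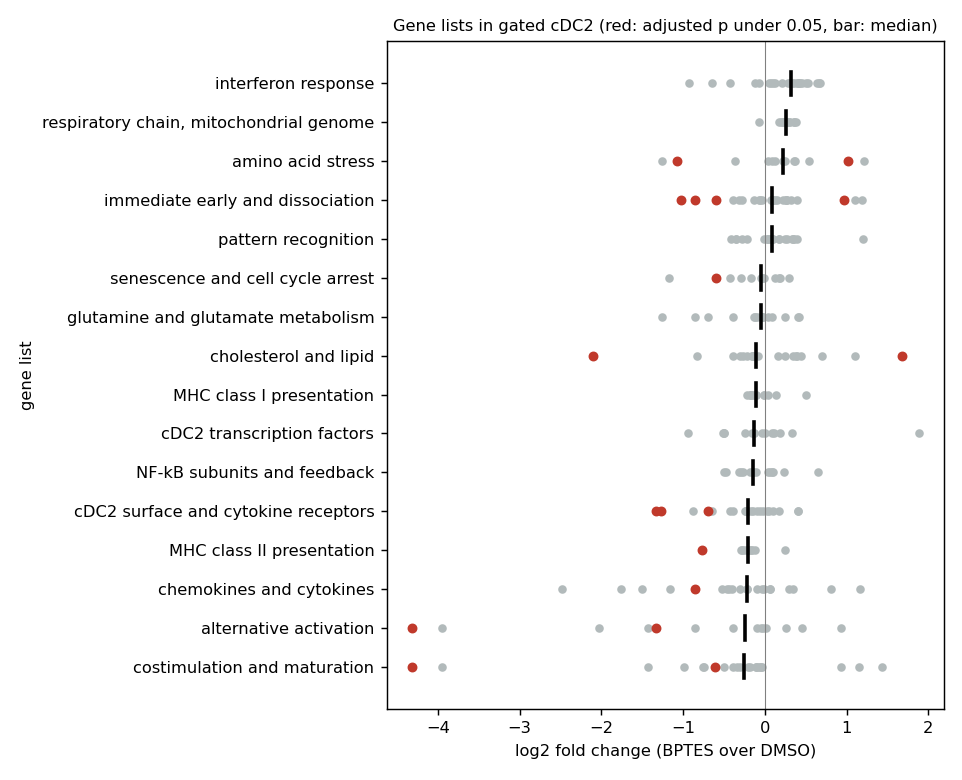
Log2 fold change (BPTES over DMSO, x axis) of every tested gene in 16 gene lists (y axis), with genes past an adjusted p of 0.05 in red and the list median as a black bar. The list medians lie between -0.255 (costimulation and maturation) and 0.316 (interferon response), and Ccl22, which is in 2 lists, is the red point farthest to the left.

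The lower chemokine was compared with neighbouring populations. Without TMM scaling, Ccl22 was at 2.73 and 26.1 CPM under BPTES and 19.0 and 28.4 CPM under DMSO in cDC1, where the groups overlapped. In mature dendritic cells, where it was most abundant, it was at 112 and 149 CPM against 791 and 793 CPM, a log2 fold change of -2.67 that did not pass in that population's own fit (adjusted p = 0.0733, edgeR). Mgl2 in cDC1 was at 44.1 and 26.1 CPM against 152 and 189 CPM (-2.28, adjusted p = 0.206), and in C1q macrophages at 314.5 and 452 against 533 and 469 CPM (-0.39, adjusted p = 0.424). Mature dendritic cells were few, with 9 in BPTES library 2.

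**Figure D5:**
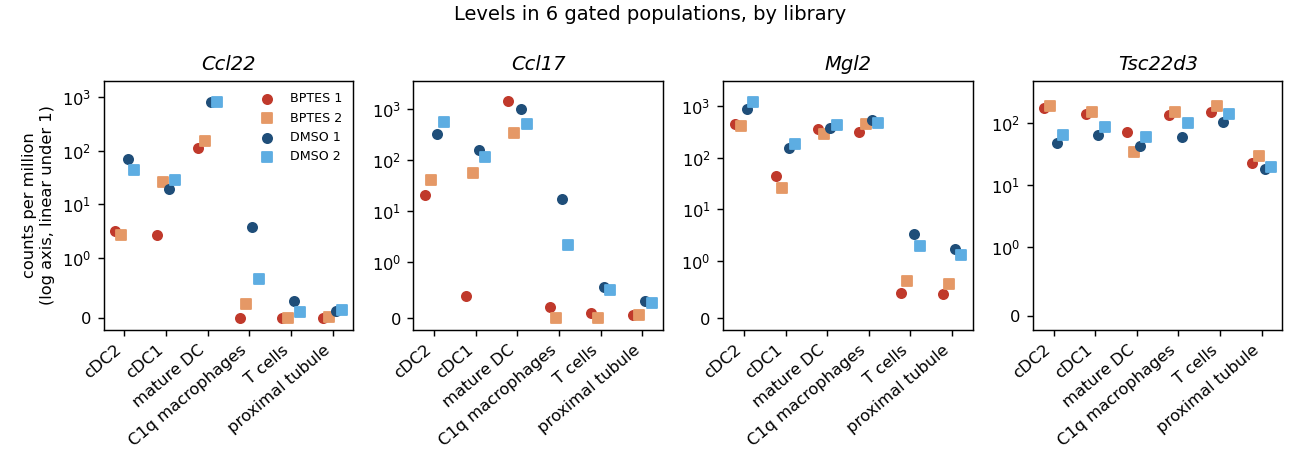
Levels of Ccl22, Ccl17, Mgl2 and Tsc22d3 (y axis, CPM of each population's sum, log scale that is linear under 1) in 6 gated populations (x axis), with 1 point per library. Ccl22 is highest in mature dendritic cells, and in cDC2 the BPTES points (3.24 and 2.75 without TMM scaling) lie below the DMSO points (71.6 and 43.6).

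Whether the treatment effect in cDC2 differed from that in cDC1 or macrophages was tested as an interaction with the library as a block. Against cDC1, 8 of 10963 genes (0.073%) differed, 6 (0.0547%) with a more positive effect in cDC2 and 2 (0.0182%) with a more negative one. Ctsl, the lysosomal protease cathepsin L, was at 150 and 104 CPM in cDC2 under BPTES and 55.6 and 32.2 CPM under DMSO, whereas in cDC1 it was at 264 and 184 against 308 and 174 CPM. The interaction was 1.57 on the log2 scale (SE 0.157, adjusted p = 0.0121, edgeR). Without the endothelial and tubule cells, here left out of both populations, it was 1.58 (adjusted p = 0.00763). Without BPTES library 1 or 2 it was 1.55 and 1.59, and the call was lost. Mctp2, a calcium-binding membrane protein gene, had an interaction of 2.59 (adjusted p = 0.0409). Without the endothelial and tubule cells it was 2.22 (adjusted p = 0.00474), and without BPTES library 1 or 2 it was 2.76 and 2.45 and not called. Plasmacytoid dendritic cell markers summed to 1866 and 1591 CPM under BPTES and 2322 and 971 CPM under DMSO in gated cDC1. In cDC2 they summed to 407 and 530 against 272 and 141 CPM. The interaction was not fitted without cells with Siglech counts, so the part of plasmacytoid cells in it was not tested. Without BPTES library 1, 0 genes differed (653 at an unadjusted p under 0.05, edgeR), 1 differed without BPTES library 2, 46 without DMSO library 1 and 91 without DMSO library 2. For Ccl22 the interaction against cDC1 was -3.33 (SE 1.20) and not called, and for AA467197 it was -1.61 (SE 0.367) and not called.

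Against C1q macrophages, 39 of 12464 genes (0.313%) differed, 20 (0.16%) with a more positive and 19 (0.152%) with a more negative effect in cDC2. Apoe had the interaction 2.65 (SE 0.209), with levels of 5792 and 4679 CPM under BPTES and 8638 and 12531 CPM under DMSO in the macrophages. Among genes with a more negative effect were the tubule enzyme genes Keg1, Cyp2e1 and Acy3. Without the endothelial and tubule cells of both populations 0 of 11718 genes differed (905 at an unadjusted p under 0.05, edgeR). Leaving out BPTES library 1 gave 4 genes, BPTES library 2 gave 16, DMSO library 1 gave 334 and DMSO library 2 gave 127.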

How the data were processed

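The 4 single-cell libraries (GEM-X chemistry) were counted by the authors with Cell Ranger 8.0.1 against build mm10, per the submitters' processing notes. The annotation is not given in the sources used here. Per the file headers, the deposited matrices hold whole UMI counts, not normalized. Barcodes with at least 500 UMIs, at least 300 genes and at most 50% mitochondrial UMIs were kept. The members and gene lists were chosen with earlier results of these data known.

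Raw counts of gated cells were summed per library and tested with edgeR 4.0.16 (robust quasi-likelihood fit, TMM, filterByExpr, Benjamini-Hochberg over all genes tested, threshold 0.05). The comparison was fitted without a replicate block, and the SE was derived from the F statistic. Named genes were up to 12 per direction with the greatest change among called genes whose libraries did not overlap between groups and whose log2 CPM averaged 5 or more, without gate and immunoglobulin genes. Most other genes named are list members, and the promoters and motifs were chosen after values were seen. CPM compared between populations or summed over a marker list carries no TMM scaling. A named gene and a list member are not reported here. Interactions named up to 5 genes per direction. Marker lists covered 12 cell types and gene lists 16 themes. B cell (1 gene tested, 0 called), C1q macrophage (2, 0) and neutrophil markers (2, 0) gave no call, and the mature dendritic cell and T cell lists had 0 genes past the count filter.

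The gate was the doublet treatment in the reported values, and removal of the highest Scrublet scores was an alternative. Other alternatives were DESeq2 1.42.0, RLE scaling, no count filter, a 25% mitochondrial limit, stricter gates, thinning to 5000 UMIs, another denominator, the replicate block and leaving out each library. Sirpa in place of Cd209a, equal cell numbers (71 per library) and removal of cells with other markers were added after seeing the data. Cell counting gives Clopper-Pearson intervals (R 4.3.3, scipy 1.17.1). On simulated cDC2 counts the test recovered 68% of genes raised 2-fold and 58.3% of genes at 0.5 of their level, 100% at 4-fold and 96% at 0.25, with 7 false calls among 10147 unchanged genes. For interactions with C1q macrophages it recovered 36% at 2-fold and 22% at 0.5. Recovery and false calls were not tested for genes with most UMIs in 1 cell, such as Plpp3 (170 of 172 in BPTES library 2).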

Additional observations from a re-analysis of the deposited data

Results flagged for a closer look

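The treatment effect differed between cDC2 and cDC1 for 8 genes in the interaction test, and 4 of them met the level rule for naming. Their interactions on the log2 scale were 3.37 for Plpp1, 1.57 for Ctsl, 2.59 for Mctp2 and 2.59 for Igfbp7, all with a more positive effect in cDC2. Plpp1 was at 32.4 and 37.1 CPM in cDC2 under BPTES and 3.39 and 2.35 CPM under DMSO, with 67.9, 76.0, 69.3 and 64.4 CPM in cDC1. Its interaction was -0.24 without the cells of both populations that had endothelial or tubule counts. Without them the Igfbp7 interaction was 1.16 and not called (adjusted p = 0.683, edgeR).

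The treatment effect differed between cDC2 and C1q macrophages for 39 genes in the same kind of test. Interactions were -2.26 for Keg1, -2.94 for Cyp2e1, -3.56 for Acy3, -2.46 for Plxna4 and -2.08 for Rnf180, each more negative in cDC2. They were 2.65 for Apoe, 4.97 for Dlc1, 2.04 for Anxa3, 9.72 for Cxcl13 and 1.89 for Dip2c, each more positive in cDC2. Cxcl13 was at 2.03 CPM in BPTES library 1 and at 0 in the other cDC2 libraries, and in the macrophages at 8.59, 0.227, 7.56 and 248 CPM, so DMSO library 2 alone held most of it. The fitted value of Cxcl13 depends on the prior count and is no bound. Cyp2e1 in the macrophages was at 25.2 and 116 CPM under BPTES and 24.6 and 36.1 CPM under DMSO, against 3.24, 13.3, 25.8 and 25.8 CPM in cDC2. None of these 10 genes passed once cells with endothelial or tubule counts were left out of both populations. Proximal tubule markers in the macrophages summed to 1783 and 4045 CPM under BPTES and 703 and 1123 CPM under DMSO.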

How the results depend on the processing

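The cDC2 share was lower under BPTES in the mean under every alternative run, with differences from -1.67 (without DMSO library 2) to -0.249 percentage points. For gene calls (183 as reported), no count filter gave 825, the replicate block 502, no high Scrublet scores 81, the Sirpa gate 0, no endothelial or tubule cells 74, and no Siglech or Ly6c2 cells in addition 47. Leaving out 1 library gave 99 to 509, and doing so without the endothelial or tubule cells 155 to 391. Against cDC1 (8), DESeq2 gave 14, no count filter 287, no endothelial or tubule cells 20 and leaving out 1 library 0 to 91. Against macrophages (39), DESeq2 gave 63, no count filter 337, no endothelial or tubule cells 0 and leaving out 1 library 4 to 334. Deviations of same-numbered libraries from their group means correlated at r = 0.101. With 2 libraries per group the crossed value mirrors it (-0.101), so it cannot show whether same-numbered libraries share a batch. All 183 genes stayed called with the block. With 4 libraries that fit leaves little to estimate the spread of a gene from, so its p-values lean on the spread shared over genes.

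Among the values followed, direction turned for Plvap (-0.53) and Igfbp7 (-1.23) with the Sirpa gate. Without endothelial or tubule cells it turned for Plpp1 against cDC1 (-0.24). With 1 library left out as well, it turned for Igfbp7 without BPTES library 1 (-0.21) and Plpp3 without DMSO library 2 (-0.10). Of the 124 called cDC2 genes also tested without those cells, 2 changed sign, among them Slc4a4 (1.05 to -0.22). Over all fits that leave out 1 library, Plpp3 lay between -0.10 and 4.78 and Igfbp7 between -0.21 and 1.73. The cause was not tested. Of 70 values followed, RLE scaling and the 25% mitochondrial limit changed the call or direction of 0. With 1 library left in a group, that library is assumed to vary like the others. Depth limits genes with few UMIs, such as Ccl22 under BPTES (8 and 6 UMIs).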
